A study of Mus musculus with 2 samples.

Results

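Natural killer (NK) cells were taken from single-cell RNA sequencing of mouse adductor muscle by their marker genes. A member had at least 1 UMI (a unique molecular identifier, counted once per captured RNA molecule) of at least 3 of the 6 genes Ncr1, Klrb1c, Klre1, Gzma, Eomes and Prf1. It had no UMI of Cd3e, Cd3d or Cd3g (T cells), Cd79a (B cells), Csf1r (macrophages), Pdgfra (fibroblasts) or Cdh5 (endothelial cells). Of 23001 barcodes kept, 156 met the rule, 72 of 13837 in the WT library and 84 of 9164 in the knockout library. The study compared WT control littermates with Apoa1bp-/- mice (labelled AIBP-KO) on day 7 after femoral artery ligation, which closes the main artery of the hind limb and leaves the adductors ischemic, so the surgery is common to both groups. The labels give 4 operated mice of each genotype and a single library of each. The sources used here do not say whether those mice were pooled, nor their strain or age. Y-linked Ddx3y had 4728 UMIs in WT and 4184 in the knockout, and Xist 1 and 2.

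NK cells are innate lymphocytes that kill stressed, infected or transformed cells without prior antigen contact. Activating and inhibitory surface receptors are weighed against each other, and a positive balance releases granules of perforin and granzymes and brings out interferon gamma and chemokines. They depend on interleukin 15 and on the transcription factors T-bet and Eomes, enter injured tissue from the blood, and lack the rearranged antigen receptor of T cells. The related group 1 innate lymphoid cells (ILC1) stay in tissue and carry the integrin CD49a, the product of Itga1.

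Since each genotype is 1 library, differences between them are unreplicated and are given without p-values. Levels are CPM, the UMIs of a gene divided by all UMIs of the members of a library summed and scaled by 1000000. Intervals are exact 95% intervals (Poisson for a level, conditional for a ratio, Clopper-Pearson for a share) and cover counting error only. Every ratio and log2 ratio is knockout over WT. Members held 195704 UMIs in WT, from 657 to 9072 each with a median of 2177, and 386121 in the knockout, from 749 to 28200 each with a median of 3450. The whole libraries differed in the same direction, with a median of 4461 UMIs per kept barcode in WT and 6825 in the knockout, and 39 kept barcode sequences occurred in both. Naxe (ENSMUSG00000028070), the present name of Apoa1bp, had 4061 UMIs in the kept WT barcodes and 0 in the knockout ones. Among the members it had 5 UMIs in WT and 0 in the knockout, where 3 counts, the limit that 0 of 386121 allows, would be 7.77 CPM.

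The label was checked against genes that the rule did not use. Klrd1, encoding CD94, the partner chain of the NKG2 receptors, had a UMI in 90.3% of WT and 92.9% of knockout members. In macrophages, which were defined by Csf1r and complement C1q genes and had higher median depths (4684 and 7048 UMIs), those shares were 2.11% and 2.38%. Nkg7, a cytotoxic granule protein, had a UMI in 95.8% and 100% of members. T cells, with at least 2 Cd3 genes, share both genes in part. Of them 63.3% in WT and 67.3% in the knockout had an Nkg7 UMI, and 26.6% and 41.3% a Klrd1 UMI. Of 16 T cell genes outside the rule, 9 were at 0 in WT members and 8 in knockout members. Cd4, Cd8a, Cd8b1, Cd5, Cd6, Themis and Foxp3 were at 0 in both. The 5 that reached a mean of 50 CPM were Trbc1, Trbc2, Trdc, Cd28 and Cd2. That list summed to 710 CPM in WT and 1064 in knockout members, against 57.8 and 65.1 in all other barcodes. Of 14 genes of type 2 and type 3 innate lymphoid cells, 11 were at 0 in both, among them Il1rl1, Il13, Il5, Il23r, Il22 and Il17a. The Klrd1 and Nkg7 shares and the genes at 0 are as the NK label implies. The source of the T cell RNA that was present was not tested. ILC1 share several of the 6 markers and were not separated by the rule.

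**Figure D1:**
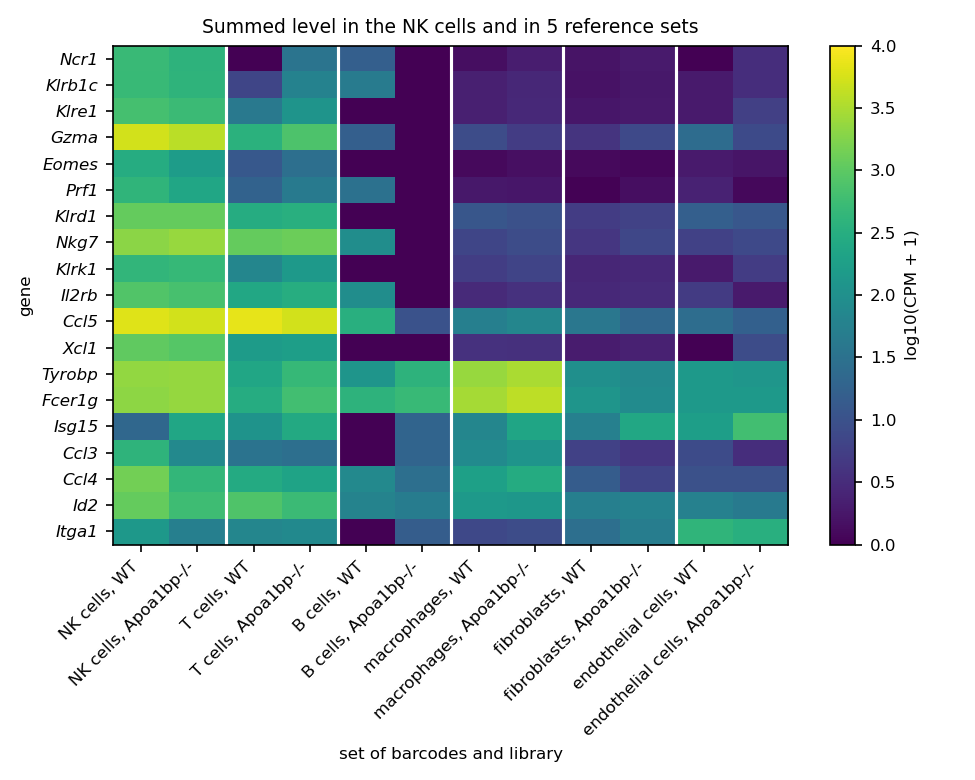
Summed level of 19 genes as log10(CPM + 1), by colour, in the NK cells and in 5 reference sets of each library. The upper 6 genes chose the NK cells. Klrd1, Nkg7 and Klrk1 are bright in both NK columns, weaker in T cells and far weaker in macrophages and fibroblasts.

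The marker values that chose the members are given as a description. Gzma, granzyme A, was the most abundant, at 5411 CPM in WT (5090 to 5747) and 3921 in the knockout (3726 to 4124). Klre1, a lectin-like NK receptor, stood at 664 and 539 CPM, Ncr1, the activating receptor NKp46, at 511 and 383, and Klrb1c, the NK1.1 antigen, at 501 and 394. Prf1, perforin, stood at 409 and 236 CPM, and Eomes at 296 and 163. All 6 were lower per UMI in the knockout members. These genes chose the members at unlike depths in the 2 libraries, so this is not read as a genotype difference. Over 10000 UMIs were held by 0 WT and 8 knockout members. Of the WT members 19, 25, 20 and 8 had exactly 3, 4, 5 and 6 markers, and of the knockout members 17, 24, 32 and 11. Just outside the rule, 19 WT and 15 knockout barcodes had exactly 2 markers and no barred gene. Nkg7 had a UMI in 84.2% and 53.3% of these, and in 94.7% and 100% of members with exactly 3 markers.

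NK cells made up a larger share of the knockout library. The share was 0.52% in WT (0.407 to 0.655%) and 0.917% in the knockout (0.732 to 1.13%), a ratio of 1.76 (1.27 to 2.45). The share of T cells (at least 2 Cd3 genes and no barred gene of another type) was also higher, at 1.0% and 1.64%, a ratio of 1.63 (1.28 to 2.07). Among NK and T cells together, NK cells were 34.1% in WT and 35.9% in the knockout, a ratio of 1.05 (0.759 to 1.46). The T cell rule did not bar NK markers. An Ncr1 UMI was found in 0% of WT and 7.33% of knockout T cells, and a Klre1 UMI in 5.04% and 19.3%. The part of such barcodes in the T cell values was not tested. B cells were 0.195% and 0.611%, a ratio of 3.13 (1.95 to 5.16). Depth moved with the share: when each barcode was thinned to 1000 UMIs before the rule was applied, 43 WT and 45 knockout members remained and the ratio was 1.57 (1.01 to 2.44). Fibroblasts were 18.1% of the WT and 11.4% of the knockout barcodes, and the part of these other shares in the NK ratio was not tested.

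The barred genes removed more barcodes in the knockout. Before barring, 106 WT barcodes (0.766%) and 153 knockout barcodes (1.67%) had 3 or more markers. Of these, 34 in WT (32.1%) and 69 in the knockout (45.1%) had a barred gene. In WT, Csf1r barred 22 of the 34 and a Cd3 gene 7, whereas in the knockout Csf1r barred 21 of the 69 and a Cd3 gene 40. Barcodes barred by Cd3 genes alone numbered 4 in WT and 29 in the knockout. In those 29, Nkg7 stood at 2458 CPM and Klrk1 at 565, against 1248 and 146 in knockout T cells. Trac, the T cell receptor alpha constant chain, had a UMI in 24.1% of the 29, against 4.76% of the knockout NK cells. In the 4 WT barcodes Nkg7 stood at 1867 CPM and Klrk1 at 160, and Trac had 0 UMIs. These barcodes were chosen by NK markers and a Cd3 gene, so RNA of both kinds in them follows from the choice. They are not counted in any NK value except where no gene is barred. Of all barred barcodes, 2 in WT and 21 in the knockout had 2 or 3 Cd3 genes. Any of these without a barred gene of another cell type counted as T cells.

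**Figure D2:**
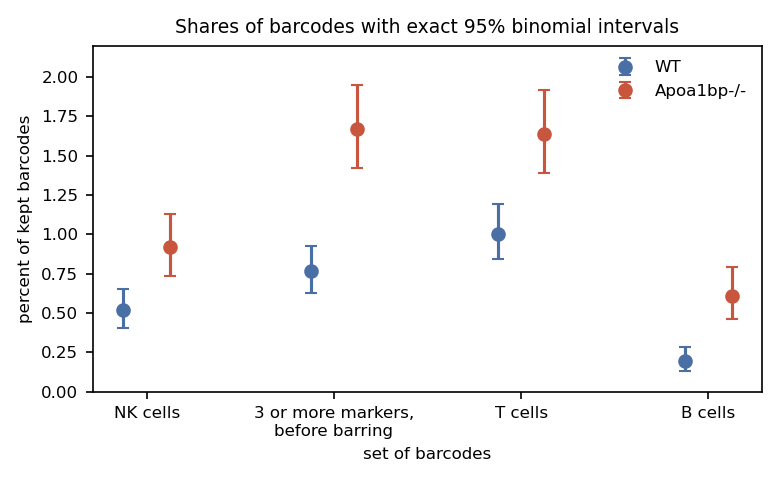
Percent of kept barcodes in 4 sets, WT and Apoa1bp-/- (1 library each), with exact 95% binomial intervals. The NK point is 0.52% in WT and 0.917% in the knockout, and the T and B cell points are also higher in the knockout.

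Some members also held RNA of another cell type. Lists of 8 to 12 marker genes of macrophages, dendritic cells, neutrophils, fibroblasts, endothelium, muscle and B cells, and 4 haemoglobin genes, were summed in each member. Over 0.5% of the UMIs came from 1 such list in 16 WT members (22.2%) and 12 knockout members (14.3%). Macrophage genes led in 9 of the 16 WT members, whereas muscle genes led in 4 of the 12 knockout members and macrophage genes in 2. A knockout member had 40.9% of its UMIs from haemoglobin genes, and another 8.89% from neutrophil genes. Scrublet, which scores barcodes against simulated pairs of cells, called 4 of the 16 and 3 of the 12 doublets. The 12 macrophage genes summed to 4149 CPM over all WT and 1572 over all knockout members, with Adgre1 and Mertk at 0 in WT. In the 56 WT and 72 knockout members at or under 0.5% (called unmixed below) the sums were 1735 and 1517 CPM, against 27574 and 26668 in all other barcodes. Genotype values are therefore given over all members and over the unmixed ones, and the part of the admixed RNA in the former was not tested.

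**Figure D3:**
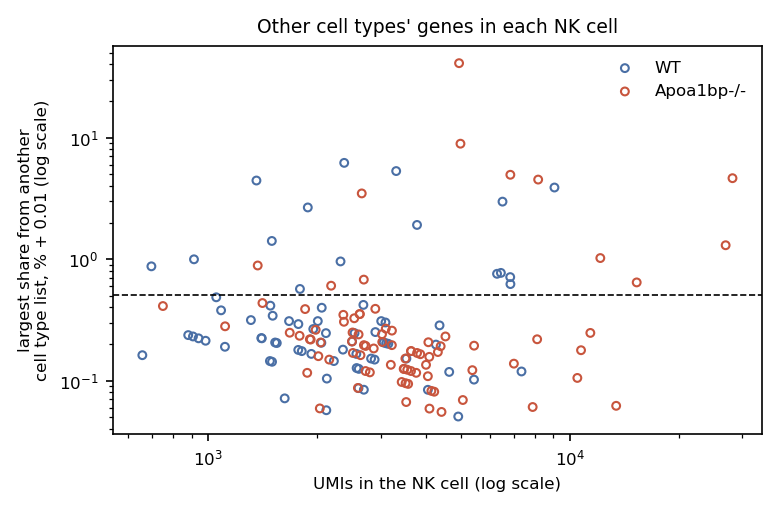
Largest share of a member's UMIs from another cell type's gene list (percent + 0.01, log scale) against its UMI count (log scale), 1 point per NK cell. The dashed line marks 0.5%. Above it lie 16 WT and 12 Apoa1bp-/- points, the highest at 40.9% before the 0.01 was added.

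Across all members, 2813 genes reached a mean of 50 CPM over both libraries. Of these, 326 (11.6%) were at least 1.5-fold higher in the knockout and 531 (18.9%) at least 1.5-fold lower, with a median log2 ratio of -0.11. Centring the ratios on that median gave 434 higher and 432 lower, so the excess of lower genes depends on the scaling. Over the unmixed members 328 of 2739 genes (12%) were higher and 490 (17.9%) lower, with a median of -0.07. These shares, which include counting error, are the background for the gene lists below.

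Activating receptors were mostly level between genotypes. Of 12 measured, 2 were at least 1.5-fold higher and 0 lower, with a median log2 ratio of -0.03. Klrk1 (ENSMUSG00000030149), encoding NKG2D, had 424 CPM in WT and 484 in the knockout, a ratio of 1.14 (0.877 to 1.5). Cd160, a receptor for HVEM, had 35.8 and 88.1 CPM from 7 and 34 UMIs, a ratio of 2.46 (1.07 to 6.58). Slamf7 was the other gene past the fold, with 8 and 25 UMIs and a ratio whose interval (0.693 to 4.06) holds 1. At the low end stood Klrb1f, with 337 and 228 CPM. Over the unmixed members 2 of 12 were higher and 1 lower, with a median of 0.1, against 12% and 17.9% of all genes tested.

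Inhibitory receptors were close to equal too. None of the 8 measured was higher and 1 was lower, with a median of -0.05. Over the unmixed members 0 of 8 were higher and 1 lower, with a median of 0.01. Klrd1 (ENSMUSG00000030165) had 1134 CPM in WT and 1127 in the knockout, a ratio of 0.993 (0.843 to 1.17), from 65 and 78 members. Klra1, of the Ly49 family of MHC class I receptors, had 16 UMIs in 4 WT members and 10 in 3 knockout members, at 81.8 and 25.9 CPM. The Klra and Klrc genes are near-identical copies whose reads the counting could have split or dropped, so values of single members of these families are uncertain.

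The signalling adaptors below the receptors were mostly within 1.5-fold. Of 14 measured, 0 were higher and 2 lower, with a median of 0.07. Over the unmixed members 2 of 15 were higher and 3 lower, with a median of 0.17, against 12% and 17.9% of all genes tested. Tyrobp, encoding DAP12, had 2218 and 2357 CPM, a ratio of 1.06 (0.947 to 1.19). Fcer1g, the Fc receptor gamma chain, had 2075 and 2333 CPM. Both pass activating signals to Syk and Zap70. The phosphatase gene Inpp5d was the lowest of the list, at 128 and 77.7 CPM from 25 and 30 UMIs.

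Cytotoxic granule genes outside the rule were mostly level. Of 13 measured, 1 was higher and 3 lower, with a median of -0.07. Nkg7 (ENSMUSG00000004612) had 2039 CPM in WT and 2388 in the knockout, a ratio of 1.17 (1.04 to 1.32). Gzmb, granzyme B, had 353 and 378 CPM, a ratio of 1.07 (0.8 to 1.45), with a UMI in 27 WT and 36 knockout members. The gene past the fold upwards, Cd63, had 44.6% of its knockout UMIs in 1 member and a ratio of 0.954 over the unmixed ones. The 3 lower genes, Lamp2, Lamp1 and Ctsd, encode lysosomal proteins that macrophages also carry. Lamp2 had 107 and 44.0 CPM over all members and 52.3 and 37.1 over the unmixed ones, where 0 of 12 measured genes of the list were past the fold in either direction.

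Among secreted factors, the inflammatory chemokines Ccl3 and Ccl4 were lower in the knockout. Of 7 genes measured, 0 were higher and 3 lower, with a median of -0.31, and over the unmixed members 0 and 3 of 8. Of all genes tested, 18.9% were lower over all members and 17.9% over the unmixed ones. Ccl3 (ENSMUSG00000000982) had 393 CPM in WT and 75.1 in the knockout, a ratio of 0.191 (0.12 to 0.296). Ccl4 (ENSMUSG00000018930) had 1426 and 448 CPM, a ratio of 0.314 (0.258 to 0.381). Few cells carried most of these UMIs: a single WT member held 40.3% of the Ccl3 and 26.9% of the Ccl4 UMIs, and the 5 richest WT members held 68.8% and 73.1%. Over the unmixed members the ratios were nearer 1, at 0.379 (0.219 to 0.651) for Ccl3 and 0.591 (0.465 to 0.751) for Ccl4. As shares of members, Ccl4 had a UMI in 25 of 72 WT and 32 of 84 knockout members, and after thinning to 1000 UMIs in 24.6% and 24.1%. With barcodes thinned before the rule, the log2 ratio of Ccl3 was -0.23, against -2.37 in all members, and that of Ccl4 reversed to 0.34, against -1.67.

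The other NK cytokines differed less. Ccl5, a chemokine of cytotoxic lymphocytes, was the most abundant gene of the list at 6484 and 5239 CPM, a ratio of 0.808 (0.753 to 0.867), and had a median of 12.5 UMIs per WT and 13.0 per knockout member. Xcl1, which attracts cross-presenting dendritic cells, had 1073 and 894 CPM. Ifng, interferon gamma, had 123 CPM in WT and 168 in the knockout, a ratio of 1.37 (0.848 to 2.29), from 15 and 28 members. Its interval holds 1, so no difference was detectable at this depth.

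**Figure D4:**
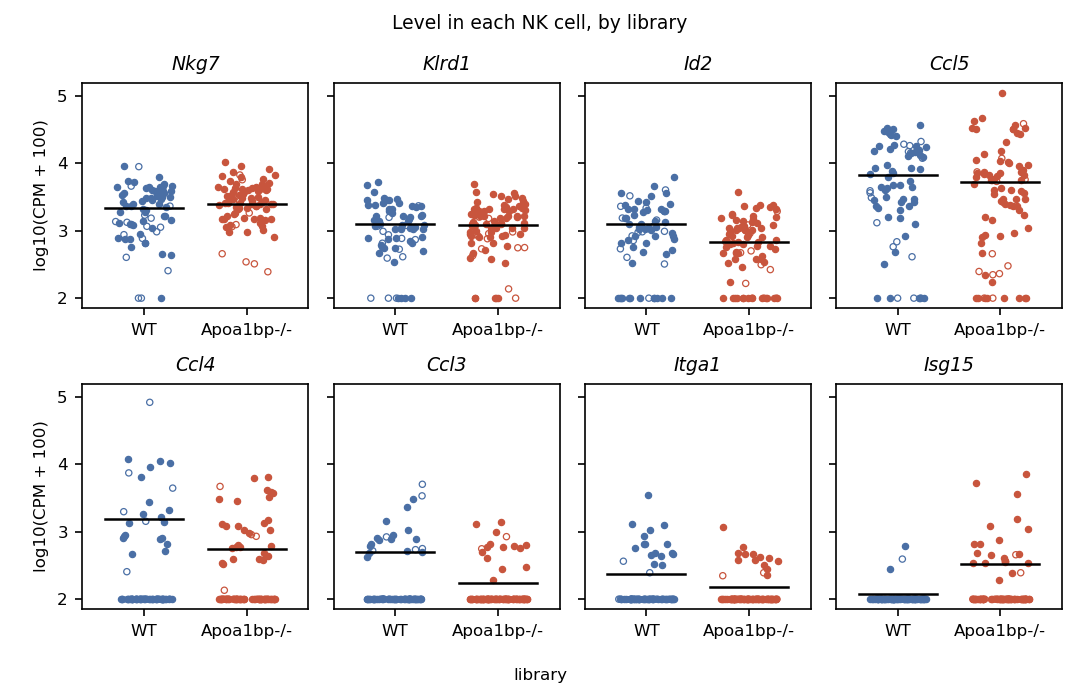
Level of 8 genes in each of 72 WT and 84 Apoa1bp-/- NK cells as log10(CPM + 100), where 2 means no UMI. Open circles are members with over 0.5% of UMIs from another cell type's list and black bars the level of the summed members. Nkg7 and Klrd1 overlap between libraries, the WT Ccl4 bar is raised by few cells, and Isg15 has 3 WT and 23 knockout members above 2.

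Isg15 led the genes that type I interferon induces. Over all members 2 of 8 measured genes were higher and 1 was lower, with a median log2 ratio of 0.40. Over the unmixed members 7 of 8 were higher and 0 lower, with a median of 1.43, against a background of 12% higher. Isg15 (ENSMUSG00000035692), a ubiquitin-like protein, had 4 UMIs in 3 of 72 WT members and 90 UMIs in 23 of 84 knockout members. Its level was 20.4 CPM in WT and 233 in the knockout, a ratio of 11.4 (4.30 to 42.8), and over the unmixed members 15 and 293. The 5 richest knockout members held 72.2% of its UMIs, with up to 19 in a single member. After thinning, a UMI was found in 4.62% of WT and 10.8% of knockout members, intervals that overlap. Irf7, a transcription factor that amplifies the interferon response, had 35.8 and 75.1 CPM from 7 and 29 UMIs.

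Isg15 was higher in other knockout barcodes as well. In T cells it stood at 113 and 267 CPM, a ratio of 2.37 (1.66 to 3.46), and in all barcodes other than NK cells at 64.1 and 243 CPM, a ratio of 3.79 (3.68 to 3.91). Macrophages had an Isg15 UMI after thinning in 4.65% of WT and 16.0% of knockout barcodes, shares as high as in the NK cells, and free RNA from them was not separated from the members' own. Cxcl10, an interferon-induced chemokine, had 1 UMI in WT and 74 in 8 knockout members, of which 1 member held 36.5%. Of those 8, 5 also held Isg15, and no WT member held both. Ifit1 and Ifit3, too low to count in the list, had 20 and 25 UMIs in the knockout and 0 in WT.

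Interferon gamma-induced genes had no common direction. Of 7 measured, 0 were higher and 1 lower, with a median of -0.26, against 11.6% and 18.9% of all genes tested. Over the unmixed members 2 of 7 were higher and 1 lower, with a median of -0.13, against 12% and 17.9%. Irf1, the lowest, had 102 and 46.6 CPM, and Psmb8, an immunoproteasome subunit and the highest, 404 and 598. Of 11 MHC class I genes, 0 were past the fold in either direction over all members. H2-K1, the most abundant, had 2846 and 2445 CPM.

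Among transcription factors of the NK lineage, Id2 and Runx3 were lower in the knockout. Of 15 measured, 0 were higher and 4 lower, with a median of -0.41, and over the unmixed members 1 of 16 was higher and 4 lower, with a median of -0.20. Those counts of lower genes stand against 18.9% and 17.9% of all genes tested, and without members over 10000 UMIs the list median was 0.03. Id2 (ENSMUSG00000020644), which holds E proteins in check and is needed for innate lymphoid cells, had 1139 CPM in WT and 572 in the knockout, a ratio of 0.502 (0.415 to 0.608). Its UMIs were nearly equal in number, 223 and 221, with a median of 2 per member in both libraries, while the knockout members held more UMIs in all. At 1000 UMIs per member, Id2 was found in 70.8% of WT and 44.6% of knockout members, against 10.0% and 9.84% of macrophages. In T cells the ratio was 0.659 (0.558 to 0.778) and in all other barcodes 0.932, so it was lower in both lymphocyte sets.

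Runx3, which shapes cytotoxic lymphocytes, had 414 and 230 CPM, a ratio of 0.557 (0.408 to 0.762). Zeb2, which acts late in NK maturation, had 179 and 90.6 CPM over all members, but over the unmixed ones its ratio was 0.788 (0.414 to 1.54). Tbx21, encoding T-bet, had 102 and 77.7 CPM, a ratio of 0.76 (0.418 to 1.41). The Id2 and Runx3 intervals lie below 1 with and without the mixed members, and those of Tbx21 and unmixed Zeb2 do not.

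Of the genes of mature NK cells, Fgl2 was lower in the knockout, and the list as a whole depended on which members were counted. Of 12 mature genes measured 0 were higher and 5 lower, with a median of -0.54, and of 10 immature genes 2 were higher and 0 lower, with a median of 0.02. Of all genes tested, 11.6% were higher and 18.9% lower. Fgl2, a fibrinogen-like protein, had 291 and 140 CPM, a ratio of 0.48 (0.325 to 0.709). Emb, a membrane glycoprotein listed as immature, had 128 and 246 CPM, a ratio of 1.93 (1.23 to 3.12). Over the unmixed members the mature list had 2 of 12 lower, a share near the 17.9% of all genes tested, and a median of -0.37. Without members over 10000 UMIs its median was -0.03, and the difference between the lists was not tested. By single cells, the maturity markers Itgam and Cd27 were too sparse to place most members: 49 of 72 WT and 49 of 84 knockout members had neither. Itgam without Cd27, the mature pattern, was found in 13 and 20 members, and Cd27 without Itgam in 7 and 13.

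Tissue residency genes showed no common shift. Of 6 measured, 0 were higher and 1 lower. Itga1 (ENSMUSG00000042284) was that gene, with 133 CPM in WT and 51.8 in the knockout, a ratio of 0.39 (0.206 to 0.726), from 18 and 15 members. Eomes, which marks NK cells rather than ILC1, was detected in 10 of the 18 and 9 of the 15. Since Eomes is 1 of the 6 genes that chose the members, these counts do not sort the Itga1 members into NK cells and ILC1. Cxcr6 had 5 and 6 UMIs, and Zfp683 and Itgae were at 0 in both libraries. Of 16 migration and adhesion genes, 0 were higher and 4 lower, with a median of -0.39. All 4 were integrins: Itga1, Itgb1 (797 and 482 CPM), Itgal and Itgam. The other integrins measured, Itga2, Itga4, Itgax, Itgb2 and Itgb7, were not past the fold. Over the unmixed members 0 of 17 genes were higher and 3 lower, with a median of -0.24, and Itgal was no longer past the fold. Those counts of lower genes stand against 18.9% and 17.9% of all genes tested.

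Cytokine receptors and their signalling genes were mostly within 1.5-fold. Of 14 measured, 1 was higher and 3 lower, with a median of -0.19, against 11.6% and 18.9% of all genes tested. Over the unmixed members 3 of 14 were higher and 1 lower, with a median of 0.06, against 12% and 17.9%. Il2rb, the chain that receives interleukin 2 and interleukin 15, had 818 and 684 CPM. Stat4, which relays interleukin 12, had 66.4 and 124 CPM, a ratio of 1.87 (0.998 to 3.77), and Tgfbr2 97.1 and 51.8. Over the unmixed members the log2 ratio of Tgfbr2 was -0.56, not past the fold. Centring on the median gene moves all the list medians over all members up by 0.11.

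**Figure D5:**
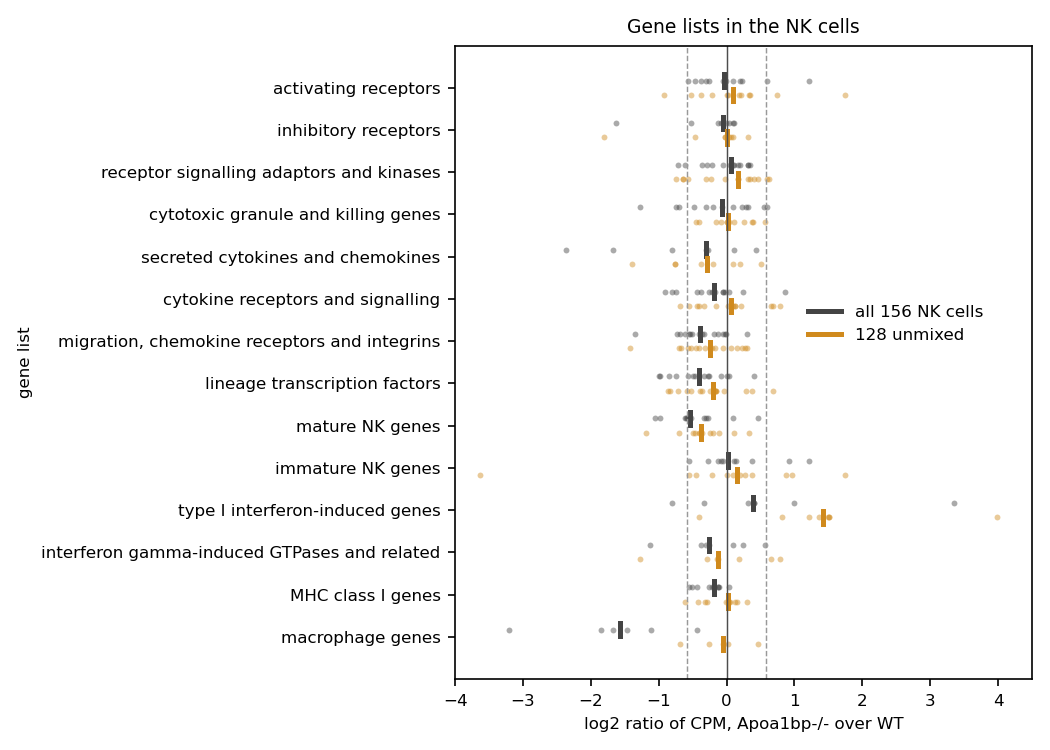
Log2 ratio of CPM, Apoa1bp-/- over WT, for the measured genes of 14 lists (points) with their median (bars), over all 156 members (grey) and the 128 unmixed ones (orange). Dashed lines mark 1.5-fold. The type I interferon median moves from 0.40 to 1.43 and the macrophage median from -1.58 to -0.05 when mixed members are left out.

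When genes were ranked by whichever bound of their ratio lay nearer 1, the 12 highest over all members were Myog, S100a9, S100a8, Cdkn1c, Tnnt2, Mymk, Actc1, Cxcl10, Mymx, Acta2, Isg15 and Tagln. In 10 of these a single knockout member held over 50% of the UMIs. Myog, the myogenic regulator, had 409 UMIs in 3 knockout members and 0 in WT, and no UMI in any unmixed member. Among the 12 lowest, Il1rn, Cd36, Gpx3, Ccl3, Bcl2a1b, Ckm, Ccl4, Ctsb, Selenop, Lgmn, Psap and Ccn1, a single WT member held over 50% of the UMIs in 4. Il1rn had 21 UMIs, all in 1 WT member. These rankings name genes of muscle, neutrophils and macrophages more than genes of NK cells.

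Over the unmixed members the 12 highest were Cxcl10, Isg15, Ifi35, Rgs5, Igfbp5, Sparc, Erh, Uqcrb, Bst2, Il10rb, Gstp1 and Dguok, and in 3 of these a single knockout member held over 50% of the UMIs. Ifi35, another interferon-induced gene, had 3 UMIs in 3 WT members and 37 in 26 knockout members, a ratio over all members of 6.25 (1.98 to 31.7), and 1.67 in other barcodes. Uqcrb, a respiratory complex III subunit, had 97.2 and 278 CPM over the unmixed members. Over all members it had 123 and 376 CPM, a ratio of 3.06 (1.98 to 4.93). In other barcodes its ratio was 2.05 and in T cells 1.74. Il10rb, a chain of the interleukin 10 and interferon lambda receptors, had a ratio of 4.34 (1.55 to 16.8) over the unmixed members. Over all members it had a UMI in 7 and 31 members, a ratio of 2.82 (1.25 to 7.48). That ratio was 1.1 in other barcodes and 0.883 (0.458 to 1.74) in T cells.

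The 12 lowest over the unmixed members were Kit, Gpx3, Atxn1, Gtpbp2, Tmpo, Rpgrip1, S100a4, Vezf1, H1f5, Nsd2, Spata13 and Peg3. Kit, the stem cell factor receptor, had 15 UMIs in WT and 2 in the knockout over the unmixed members, a ratio of 0.0661 (0.00734 to 0.284). Over all members it had 17 UMIs in 7 WT members and 5 in 3 knockout members, a ratio of 0.149 (0.043 to 0.421). Of 9 mast cell and basophil genes, 7 were at 0 in WT members and 6 in knockout members, with Cpa3, Mcpt4, Fcer1a and Tpsb2 at 0 in both. The list includes Kit and Cma1, and Cma1 had 81.8 and 54.4 CPM. It summed to 169 CPM in WT and 80.3 in knockout members, against 14.8 and 33.1 in all other barcodes. Tmpo, a protein of the nuclear lamina, had 284 and 92.7 CPM over the unmixed members. Over all members it had 255 and 95.8 CPM, a ratio of 0.375 (0.238 to 0.585), with a UMI in 22 and 21 members. S100a4, a calcium-binding protein, had 800 and 338 CPM over the unmixed members and 674 and 378 over all members. It was also lower in T cells (0.779) and in other barcodes (0.698).

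Few members were proliferating in either library. At least 2 of 7 cell cycle genes were found in 7 of 72 WT (9.72%) and 8 of 84 knockout members (9.52%), a ratio of 0.98 (0.31 to 3.17). In T cells the shares were 5.04% and 16.0%. Of 10 cell cycle genes measured in the NK cells, 1 was higher and 3 lower, with a median of -0.37, and Top2a, the lowest, had 174 and 90.6 CPM from 7 and 8 members. After thinning, 4 of 65 and 1 of 83 members were cycling by that count, too few to order. Of 11 immediate early genes, which tissue dissociation also induces, 0 were higher and 4 lower, with a median of -0.52. Fosb had 271 and 101 CPM and Fos 618 and 293, while in other barcodes Fos was level (ratio 1.02). Over the unmixed members 0 of 11 were higher and 4 lower, with a median of -0.18, and the log2 ratio of Fos was -0.68. The counts of lower immediate early genes stand against 18.9% and 17.9% of all genes tested. Over the alternatives the list median ranged from -0.59 to 0.09, Fos from -1.26 to -0.3 and Fosb from -1.46 to -0.07.

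The comparison with T cells, a related set of lymphocytes, is a description, since the rule separates them by Cd3 genes. The 10 genes highest in NK over T cells in both libraries were Klra4, Klra3, Cma1, Klra8, Styk1, Irf8, Klri2, Klrb1f, Klra9 and Khdc1a. Irf8, a factor of NK maturation, had 542 CPM in NK and 40.4 in T cells of WT, a ratio of NK over T cells of 13.4 (7.64 to 25.3), and 8.21 (5.54 to 12.6) in the knockout. Higher in T cells were Trac, Cd8b1, Cd8a, Bcl11b, Cd5, Il7r, Cd6, Ifi27l2a, Ly6a and Klk8. Il7r, the interleukin 7 receptor chain, had 25.5 CPM in NK and 430 in T cells of WT, and 18.1 and 410 in the knockout.

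Some T cell genes outside the rule were higher in the knockout NK cells. Of 5 measured, 3 were higher and 0 lower, with a median of 0.72, where 9 of the 16 listed were at 0 in WT and 8 in the knockout. Over the unmixed members 3 of 5 were higher and 0 lower, with a median of 0.85. Of all genes tested, 11.6% were higher over all members and 12% over the unmixed ones. Cd2, an adhesion receptor of T and NK cells, had 138 and 230 CPM, a ratio of 1.67 (1.08 to 2.67). Trbc2, the T cell receptor beta constant chain, had 169 and 285 CPM, a ratio of 1.69 (1.14 to 2.57), and is a near copy of Trbc1. Cd28, the T cell costimulatory receptor, had 6 UMIs in 5 WT members and 36 in 22 knockout members, a ratio of 3.04 (1.27 to 8.83). The list summed to 710 CPM in WT and 1064 in the knockout members. Leaving out the 1 WT and 4 knockout members with a Trac UMI gave a share ratio of 1.7, and the part of unrecognised T cells in these values was not tested.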

How the data were processed

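Per the labels' protocols, adductors were digested with collagenase D and sequenced as 10x droplet libraries. As deposited, each matrix gives unnormalized UMI counts, genes by barcodes. These were made with Cell Ranger, 2.1.1 per the submitters' processing notes and 5.0.0 per the file headers. The sources used here do not name a genome build or annotation. Barcodes with at least 200 genes and at most 10% mitochondrial UMIs were kept. Scrublet in scanpy 1.11.5 marked as doublets 12% of the WT barcodes and 5.72% of those from the knockout (5 and 4 members), removed only in an alternative. Members and lists were chosen with earlier results of these data known. Counts were summed over members, and log2 ratios used a prior count of 0.5. Named genes were the 12 highest and 12 lowest by the interval bound nearest 1 at a mean of 50 CPM or more. Ribosomal, mitochondrial, haemoglobin, sex-linked, clone-named, immunoglobulin and rule genes were left out, as were genes under 0.2 times the level of other barcodes in both libraries. Extremes, the most abundant gene and subset markers of each list were also named. The unmixed members and their ranking, and Fcer1g, Xcl1, Trac, Ifit1, Ifit3 and the genes named as at 0, were chosen after values were seen. For depth, members were thinned to 1000 UMIs, which leaves 65 WT and 83 knockout members. Scripts (Python 3.11.15, numpy 2.4.6, scipy 1.17.1) were tested on simulated counts. Alternatives varied the rule, filters, doublets, depth, scaling and level minimum.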

Additional observations from a re-analysis of the deposited data

How the results depend on the processing

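No paired analysis was possible because the labels give no replicate numbers and there is 1 library per genotype. The NK share ratio of 1.76 ranged from 1.57 to 2.18 over 13 alternatives, all within its interval. The unmixed limits of 0.5% and 1% and the limit of 10000 UMIs were chosen after seeing the data. Genes at least 1.5-fold higher, 326, became 598 with members thinned to 1000 UMIs, 544 with ribosomal, mitochondrial and haemoglobin genes out of the total, 150 at a minimum of 100 CPM, 854 at 20 CPM, 3658 with no minimum and 111 at 2-fold. Genes at least 1.5-fold lower, 531, became 264 with no gene barred, 183 at 100 CPM, 1497 at 20 CPM, 4096 with no minimum and 172 at 2-fold. Higher genes were 38% of the genes past the fold, and 50.1% after centring on the median gene.

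Of 1506 log2 ratios of 82 genes over 19 alternatives, 11 changed sign from a value past 1.5-fold. Without members over 10000 UMIs Acta2 was at -0.7, Actc1 at -1.24, Cdkn1c at -0.76 and Sparc at -0.78. Thinned, Ccl4 was at 0.34, Itgam at 0.09, Sparc at -1.65 and mt-Atp6 at -0.07. Irf7 was at -0.2 with at least 4 markers, and Peg3 at 0.13 with no gene barred and 0.42 without doublets.

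List medians changed sign 94 times in 442, 20 of them between values at least 0.1 from 0 on both sides, which follow. Without members over 10000 UMIs the medians were 0.13 for MHC class I, 0.22 for cytokine receptors, -1.04 for fibroblast genes, -0.18 for glycolysis, 0.18 for interferon gamma-induced genes and -0.24 for nuclear oxidative phosphorylation. Thinned, they were -4.15 for fibroblast genes, 0.17 for interferon gamma-induced genes, -0.45 for mitochondrially encoded genes and 0.27 for secreted cytokines. As means over members they were -0.43 for fibroblast genes, 0.11 for interferon gamma-induced genes and -0.17 for mitochondrially encoded genes. With no gene barred they were -0.12 for glycolysis, -0.12 for nuclear oxidative phosphorylation and 0.13 for secreted cytokines. Muscle genes were at 0.67 with at least 2 markers and 0.1 without doublets, and nuclear oxidative phosphorylation at -0.2 and -0.12 without members over 0.5% and 1% from another list. The cause was not tested. Isg15 stayed higher (0.78 to 4.18) and Id2 lower (-1.1 to -0.57) in each alternative. Genes with few UMIs and the 8 knockout members over 10000 UMIs limit these values.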

Other observations

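Energy metabolism genes were mostly within 1.5-fold in the NK cells. Of 9 glycolysis genes 0 were past 1.5-fold in either direction, with a median log2 ratio of 0.16, and of 16 nuclear oxidative phosphorylation genes 2, Uqcrb and Sdhd, were higher, with a median of 0.11. Over the unmixed members 1 of 15 nuclear genes was higher and 0 lower, with a median of -0.2. Of 9 tricarboxylic acid cycle genes 2, Mdh2 and Sdhb, were higher and 0 lower, with a median of -0.04. Of 12 mitochondrially encoded genes 2 were higher and 1, mt-Nd3, lower, with a median of 0.17. Of all genes tested, 11.6% were higher and 18.9% lower. The 2 higher ones were mt-Co2, with 1451 CPM in WT and 2859 in the knockout, and mt-Atp6, with 1814 and 3214. Their ratios were 1.97 and 1.77. In all other barcodes the ratios of mt-Co2 and mt-Atp6 were 2.32 and 1.93, so the difference in these 2 genes was of similar size across the library.

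Genes of cholesterol handling, the pathway AIBP is known for, were sparse. Of 13 cholesterol synthesis genes 0 reached 50 CPM in the members. Of 4 liver X receptor and efflux genes measured 0 were higher and 2 lower: Apoe had 2432 and 673 CPM over all members and 972 and 812 over the unmixed ones, and Abcg1 had 15 and 17 UMIs.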
